A study of Arabidopsis thaliana and Nicotiana tabacum with 16 samples.

Results

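MNase and RNase I, the nucleases most used to make ribosome-protected fragments (RPFs) in plants, were compared in 6 of the 16 libraries of the series, all of which were taken from the table of counts over coding sequences (CDS). The libraries were made from 8-day-old wild-type Arabidopsis seedlings of the accession Col-0. Lysates were digested with 75, 150 or 300 U of MNase, to which CaCl2 was added as cofactor, or with 62.5, 125 or 250 U of RNase I, where the title of the lowest dose reads 63 U. All 6 libraries were left undepleted of rRNA and hold fragments of 20 to 50 nt. Each dose was sequenced as 1 library, so there were no biological replicates. The 3 doses of a nuclease stand as its group, and the p-values measure the spread between doses, which includes any effect of the dose itself. The comparison asks whether the nuclease and its dose change the RPF count of any of the 27420 nuclear, 88 chloroplast and 120 mitochondrial entries of the table.

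A translating ribosome shields a short stretch of mRNA from a nuclease, and the number of shielded fragments over a gene measures how many ribosomes sat on it. RNase I cuts RNA with little regard to the base, whereas MNase needs calcium and prefers to cut at A and U. Plants translate in 3 compartments. Cytosolic ribosomes serve the nuclear mRNAs, and the ribosomes of chloroplasts and mitochondria, which descend from bacterial ones, serve the mRNAs of the organelle genomes. The chloroplast genome mostly encodes core subunits of the photosynthetic complexes and of its own gene expression machinery, while the antenna proteins and most enzymes of carbon fixation are encoded in the nucleus.

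The libraries held 6562833 to 11583740 CDS counts with MNase and 4431776 to 6739863 with RNase I, and rRNA took 61.4 to 76.0% of the reads with MNase against 77.7 to 83.6% with RNase I. Depth, rRNA share and added calcium thus go along with the nuclease, and their part in the results below cannot be told apart from it. The tissue label was checked against marker genes. All 21 genes for light-harvesting proteins and all 5 root markers passed the filter of at least 10 counts in at least 3 libraries, as did 1 of the 11 genes for seed storage and oil-body proteins. In whole seedlings, fewer cells of a type and fewer RPFs per cell cannot be told apart. Thinned to 4431776 counts, the MNase libraries reached 15386 to 15435 genes with at least 10 counts, and the RNase I libraries 15433 to 15501.

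Few genes differed between the nucleases, and most of the differences were small. Of 16738 genes tested by edgeR's quasi-likelihood test at an adjusted p under 0.05, 324 were called (1.94%), of which 218 were higher with MNase (1.3%) and 106 were lower (0.633%). At an unadjusted p under 0.05 it was 1940 genes (11.6%). The 3 MNase libraries lay above the 3 RNase I libraries in 1509 genes (9.02%) and below them in 1361 (8.13%), 17.1% in all. Of the 324 genes, 277 differed by less than 1.5-fold and 19 by 2-fold or more. Calls went with the level of a gene. In the decile of genes with the highest mean counts, 9.44% were higher with MNase and 4.00% were lower, with 1.85 and 1.25% in the next decile and at most 0.538% in either direction in every other decile. The median standard error of the log2 fold change was 0.08 in the highest decile and 0.59 in the lowest, so that differences of 1.5-fold were not detectable at this depth in most weakly translated genes. Without the 62.5 U library of RNase I the 324 calls became 131, and without the 125 U library 155.

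**Figure D1:**
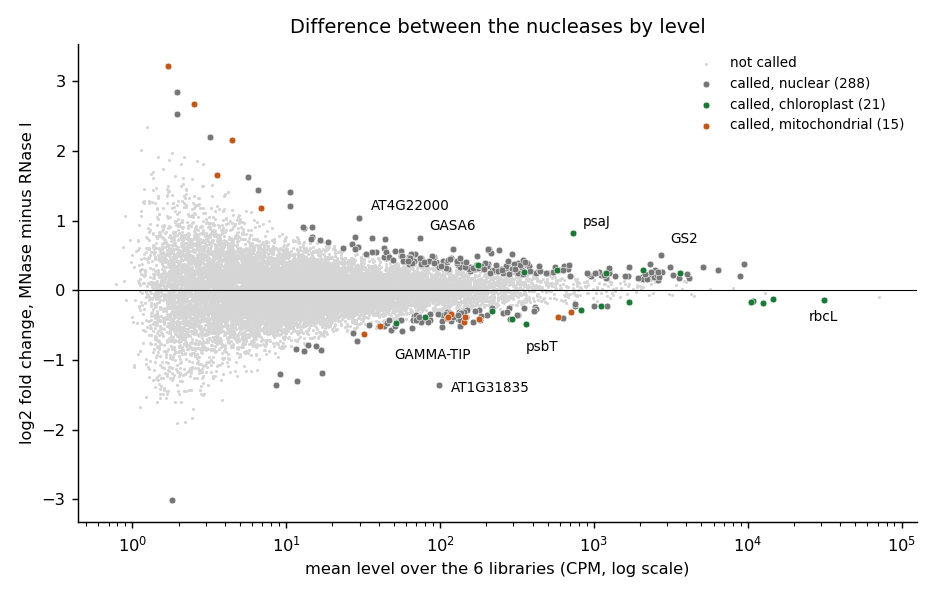
Log2 fold change of MNase minus RNase I (vertical axis) against the mean level over the 6 libraries in normalized CPM (log scale), 1 point per gene; coloured points are the 324 genes called by edgeR at an adjusted p under 0.05. Most called genes lie at high levels and close to 0, and the mitochondrial entries called higher lie at the low end of the scale.

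**Figure D2:**
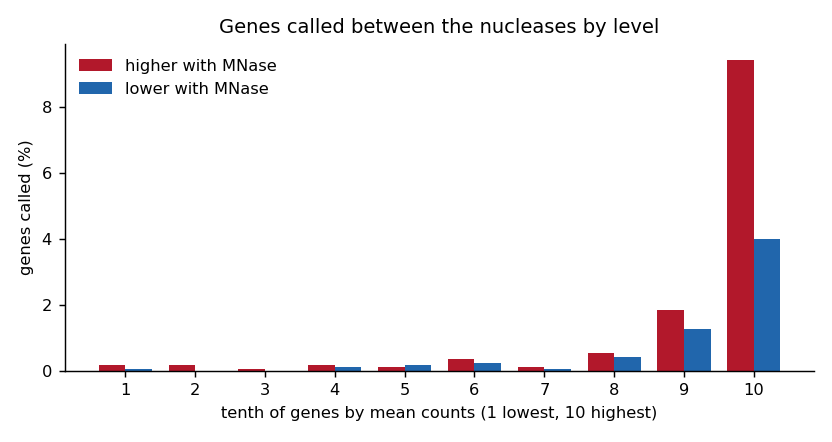
Percentage of genes called (bars, starting at 0) in each decile of the tested genes by mean counts, for genes higher (left bar) and lower (right bar) with MNase. The highest decile reaches 9.44% higher and 4.00% lower.

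Beyond counting error, MNase libraries of different doses differed from each other about as much as they differed from RNase I libraries. In the 5426 genes that had 100 counts or more in all 6 libraries, the standard deviation of the log2 ratio beyond counting error was 0.211 to 0.213 in the 3 pairs within MNase, 0.124 to 0.141 in the 3 pairs within RNase I and 0.210 to 0.240 in the 9 pairs between the nucleases. A pair of 14-day libraries made with 700 U of RNase I, which differ only in the PCR according to the methods, gave 0.266 over 4119 genes. These are descriptions across genes, which are not independent replicates.

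Nuclear genes of photosynthesis were prominent among those higher with MNase. Light-harvesting proteins carry the chlorophylls of the antenna, and 15 of their 21 genes rose (71.4%, against 1.3% of all genes tested) while none fell. Their median log2 fold change was 0.24, against -0.01 over all genes tested. Of the 21, 19 belong to the decile with the highest counts, and 14 of those rose (73.7%, against 9.44% of all genes of that decile). When libraries were scaled by their totals alone, 12 rose. The summed level of the list was 55570, 53480 and 52051 CPM after 75, 150 and 300 U of MNase, against 43573, 45585 and 45738 CPM after 62.5, 125 and 250 U of RNase I. The groups did not overlap, and they came closer to each other with dose. The median of the list was 0.34 in the pair of lowest doses, 0.23 in the middle pair and 0.17 in the pair of highest doses. AT1G76570, a weakly expressed member of the family, had the largest fold of the list, with 15.9, 19.7 and 20.2 CPM after MNase and 9.42, 12.1 and 11.3 CPM after RNase I (log2 fold change 0.76, standard error 0.21, adjusted p = 0.042). LHCA4, an antenna protein of photosystem I, had 2735, 2538 and 2570 CPM after MNase and 1933, 2028 and 2096 CPM after RNase I (0.37, standard error 0.04, adjusted p = 1.6e-07). The antenna genes of photosystem II CAB1 (0.38), CAB2 (0.33) and CAB3 (0.33), which lie next to each other on chromosome 1, were the others with the smallest p. Many of these genes are near-identical copies, between which the authors' counting could split reads.

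Among nuclear-encoded subunits of the photosystems themselves, a minority of genes was called. Of 12 genes for photosystem I subunits, all of the highest decile, 4 rose (33.3%, against 9.44% of that decile and 1.3% of all genes) and none fell (median 0.12). PSAK, which helps to bind the antenna to photosystem I, had 1414, 1357 and 1353 CPM after 75, 150 and 300 U of MNase, against 1144, 1136 and 1135 CPM after 62.5, 125 and 250 U of RNase I (log2 fold change 0.27, standard error 0.05, adjusted p = 0.00023). Every MNase library was above every RNase I library by more than the spread within either group. PSAD-1, a stromal subunit that docks ferredoxin, rose by 0.25 on the log2 scale, and PSAG and PSAO by 0.20 each. Of 11 photosystem II genes tested, all of the highest decile, the small subunits PSBY (0.23) and PSBX (0.17) rose, whereas PSBTN fell (-0.23, adjusted p = 0.017). These shares of 18.2 and 9.09%, against 9.44 and 4.00% of that decile, rest on too few genes to be read as a result about the list (median 0.03). Of 11 genes for electron carriers and ATP synthase, all of that decile, 2 rose and 1 fell, which are the same shares on as few genes. Ferredoxins, the soluble electron carriers downstream of photosystem I, rose in both forms of the list. FD1 rose by 0.24, with groups that overlapped, and FED A by 0.20. PDE334, a subunit of the chloroplast ATP synthase, had 687, 715 and 698 CPM after MNase and 767, 837 and 793 CPM after RNase I (-0.19, adjusted p = 0.044).

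The Calvin-Benson cycle, which fixes carbon, was tested in 23 genes, of which 6 rose (26.1%, against 1.3% of all genes) and none fell (median 0.13). Of the 22 in the highest decile 27.3% rose, against 9.44% of that decile. Among the 6 were RBCS3B (0.28), a small subunit of Rubisco, RCA (0.21), the activase of Rubisco, PRK (0.33), phosphoribulokinase, and GAPA (0.19), a chloroplast glyceraldehyde-3-phosphate dehydrogenase. Of 16 genes of photorespiration, which recovers the carbon lost when Rubisco fixes oxygen, 3 rose (18.8%) and none fell (median 0.05). All 16 lie in the highest decile, so these few calls stand against 9.44% and not against 1.3%. GS2, the chloroplast glutamine synthetase that recaptures photorespiratory ammonia, had the smallest p of the 205 nuclear genes that rose, with 3313, 3116 and 3226 CPM after 75, 150 and 300 U of MNase, against 2187, 2270 and 2373 CPM after 62.5, 125 and 250 U of RNase I (log2 fold change 0.50, standard error 0.04, adjusted p = 1.2e-11). The lowest MNase value exceeded the highest RNase I value by far more than the range within a nuclease. The catalase gene CAT2 (AT4G35090), whose enzyme removes the hydrogen peroxide made in photorespiration, had 2397, 2356 and 2245 CPM after MNase and 1958, 1945 and 2053 CPM after RNase I (0.23, adjusted p = 0.00072). GDCH, the H protein of glycine decarboxylase, rose by 0.23.

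Outside photosynthesis, single genes of protein synthesis and folding rose. Of 22 translation factors, 3 rose and none fell (median 0.08). The 3 are among 18 of the highest decile (16.7%, against 9.44%), a share too near the background for so few genes to be read as a result about the list. EIF4A-2, an RNA helicase of translation initiation, had 216, 207 and 210 CPM after MNase and 153, 170 and 187 CPM after RNase I (0.31, adjusted p = 0.014). LOS1, the elongation factor that moves the ribosome along the mRNA, rose by 0.23, and AT1G57720, the gamma chain of elongation factor EF1B, by 0.27. Of 55 heat-shock genes tested, 3 rose (5.45%, against 1.3% of all genes) and none fell (median 0.08). The 3 are among 14 of the highest decile (21.4%, against 9.44%), again too few genes to be read as a result about the list. They encode cytosolic HSP90 chaperones, HSP81-2 (0.27), HSP81-3 (0.24) and Hsp81.4 (0.30), which have similar sequences. A histone H3 gene, AT4G40030, rose by 0.46 as the only one of 38 histone genes called.

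Among plastid ribosomal proteins encoded in the nucleus, 1 of 13 rose and none fell. The 1 is among 11 of the highest decile (9.09%, against 9.44% of all genes there), so the list as a whole was at the background. The gene that rose was PSRP5, a protein found only in plastid ribosomes, with 282, 294 and 295 CPM after 75, 150 and 300 U of MNase and 191, 199 and 195 CPM after 62.5, 125 and 250 U of RNase I (0.57, standard error 0.07, adjusted p = 1.6e-07). Of 41 genes for cytosolic ribosomal proteins, 1 rose and 3 fell (median -0.02). All are among 29 of the highest decile (3.45 and 10.3%, against 9.44 and 4.00% of all genes there), too few to be read as a result about the list. STV1, which encodes the large subunit protein L24, rose by 0.25, whereas AT4G14320 fell by 0.44 on the log2 scale. AT4G00810 had 82.5, 81.7 and 99.2 CPM after MNase and 118, 125 and 115 CPM after RNase I (-0.44, adjusted p = 0.0028), and AT5G57290 fell by 0.29. Both encode acidic proteins of the ribosomal stalk, which recruits translation factors. In a wider list of all 296 tested nuclear genes annotated as ribosomal proteins, chosen after values were seen, 22 rose and 8 fell, with a median of 0.02 that turned to -0.004 when libraries were scaled by their totals alone. Of the 162 in the highest decile 21 rose and 6 fell (3.70%), near the 9.44 and 4.00% of all genes there.

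Further nuclear genes with the largest folds among called genes of at least 50 mean counts were AT2G31141 (1.41), the beta glucosidase BGLU24 (1.21), AT4G22000 (1.03), AT5G52370 (0.91), AT2G03270 (0.91) and AT2G44530 (0.75). AT4G22000 had 40.3, 41.8 and 37.3 CPM after MNase and 24.5, 17.4 and 17.1 CPM after RNase I (adjusted p = 4.1e-05). GASA6, a small gibberellin-regulated peptide, had 97.9, 91.1 and 90.6 CPM after 75, 150 and 300 U of MNase, against 48.7, 53.2 and 62.9 CPM after 62.5, 125 and 250 U of RNase I (0.75, standard error 0.10, adjusted p = 4.9e-06). Values after RNase I were lowest at the lowest dose, yet the groups stayed well apart. GI, the clock protein GIGANTEA, had 12.8, 22.9 and 15.6 CPM after MNase and 8.08, 9.05 and 10.5 CPM after RNase I (0.90, adjusted p = 0.026), and the MNase libraries spread more widely than the RNase I libraries. TPP, the peptidase that trims thylakoid lumen proteins, rose by 0.77. FUS5, a subunit of the COP9 signalosome that the annotation lists by its proteasome domain, rose by 0.66 as the only one of 39 proteasome genes tested, and AT3G29240 rose by 0.37 as the only one of 163 genes annotated as pentatricopeptide repeat proteins.

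Genes that fell with MNase included several of cell wall and membrane proteins. Of 89 genes tested for lipid-transfer and arabinogalactan proteins, which are secreted to the cell surface, 5 fell (5.62%, against 0.633% of all genes) and none rose. The median was -0.14, and 63 of the 89 were below 0. AGP1, an arabinogalactan protein, had 19.5, 21.8 and 23.2 CPM after 75, 150 and 300 U of MNase, against 33.4, 31.3 and 33.9 CPM after 62.5, 125 and 250 U of RNase I (-0.61, standard error 0.15, adjusted p = 0.020). FLA18 (-0.56) and FLA9 (-0.31), fasciclin-like members, and LTP6 (-0.46), a lipid-transfer protein, fell as well. Of 23 aquaporin genes, the water channels of plant membranes, 2 fell (8.70%) and none rose (median -0.12). Both are among 11 of the highest decile, where 4.00% of all genes fell. GAMMA-TIP, a channel of the vacuolar membrane, had 269, 279 and 282 CPM after MNase and 345, 364 and 358 CPM after RNase I (-0.36, standard error 0.06, adjusted p = 0.00030). PIP1B, a channel of the plasma membrane, had 911, 942 and 898 CPM after MNase and 1112, 1079 and 1029 CPM after RNase I (-0.23, adjusted p = 0.0055). In both genes every MNase library was below every RNase I library.

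Other nuclear genes with large folds downwards were weakly translated. They were AT1G71870 (-1.36), a transporter of the MATE family, AT1G71170 (-1.20), AT5G07360 (-1.19), AT1G68238 (-0.87), AT3G53470 (-0.86), AT2G27950 (-0.80) and AT3G06035 (-0.79), together with the GRAS transcription factor gene AT2G45160 (-0.85) and AT1G31835 (-1.36). AT1G71870 had between 4.36 and 5.77 CPM after MNase and 6.96, 11.5 and 18.7 CPM after RNase I (adjusted p = 0.0055). Its RNase I values lay far from each other, and the highest was at the highest dose.

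Of the 83 nuclear genes called lower, 7 lie in a stretch of chromosome 2 from 3239696 to 3503473 (TAIR10) that is known as an insertion of mitochondrial DNA. The stretch was picked after values were seen. It holds 23 tested entries, of which 7 fell (against 0.633% of all genes) and none rose (median -0.19), and 76 nuclear genes fell outside it. Most of the 7 lie in the highest decile of counts, where 4.00% of all genes fell. The 7 entries encode subunits of the respiratory chain and the mitochondrial ATP synthase. AT2G07698, annotated as the alpha subunit of the ATP synthase, had 585, 534 and 498 CPM after 75, 150 and 300 U of MNase, against 689, 747 and 704 CPM after 62.5, 125 and 250 U of RNase I (-0.41, standard error 0.06). AT2G07727, cytochrome b, averaged 161 CPM in the MNase libraries and 208 CPM in the RNase I libraries (-0.37). The groups did not overlap in either gene. AT2G07687, subunit III of cytochrome c oxidase, had a log2 fold change of -0.38, AT2G07671 and AT2G07741, both of the membrane part of ATP synthase, of -0.34 each, AT2G07707 of -0.37 and AT2G07785 of -0.72. Since the authors kept 1 alignment of a read that fits several places, these entries and their mitochondrial counterparts share reads.

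Entries of the mitochondrial genome had a lower median. Of 120 entries 44 were tested, of which 10 fell (22.7%, against 0.633% of all genes) and 5 rose (11.4%, against 1.3%), with a median log2 fold change of -0.23. Of the 14 in the highest decile 8 fell (57.1%, against 4.00% of all genes there) and none rose. The deposited files do not pair the mitochondrial entries with gene names. ATMG01190 had 550, 506 and 472 CPM after 75, 150 and 300 U of MNase, against 665, 688 and 643 CPM after 62.5, 125 and 250 U of RNase I (-0.39, standard error 0.06, adjusted p = 3.5e-05). ATMG01360 had 675, 653 and 568 CPM after MNase and 803, 804 and 753 CPM after RNase I (-0.32). Both groups were apart in both entries. The 5 that rose had means of only 14 to 55 counts a library. ATMG00660 had 9.03, 6.33 and 6.49 CPM after MNase and 2.69, 0.883 and 1.33 CPM after RNase I (2.16, adjusted p = 0.0016). ATMG00080 rose by 1.18. ATMG00570, ATMG00660, ATMG00690 and ATMG01200 had fewer than 10 counts in most RNase I libraries and passed the filter through the MNase libraries. Entries this low with RNase I could enter only where MNase was high, so 11.4% against 1.3% is not a result about the mitochondrial entries. Mitochondrial entries took 0.724% ± 0.0318 of the CDS counts with MNase and 0.825% ± 0.00936 with RNase I (SD, n = 3 doses each; 2-sided exact permutation test, p = 0.1, the smallest that 3 against 3 libraries allow). Most of these counts lay in ATMG00280 (-0.06, not called). It had 4424.5, 4032 and 4120 CPM after MNase and 4389, 4364 and 4366 CPM after RNase I. The tested mitochondrial entries summed to 7734, 7217 and 6977 CPM and to 8231, 8293 and 8072 CPM. AT2G07732 of the chromosome 2 stretch, annotated as a large chain of Rubisco, averaged 3745 and 3704 CPM. The origin of the reads of ATMG00280 was not tested. CDS counts made up 34.2% ± 0.229 of the deposited mitochondrial reads with MNase and 30.1% ± 2.19 with RNase I, so most of the mitochondrial reads lay outside CDS with both nucleases.

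**Figure D3:**
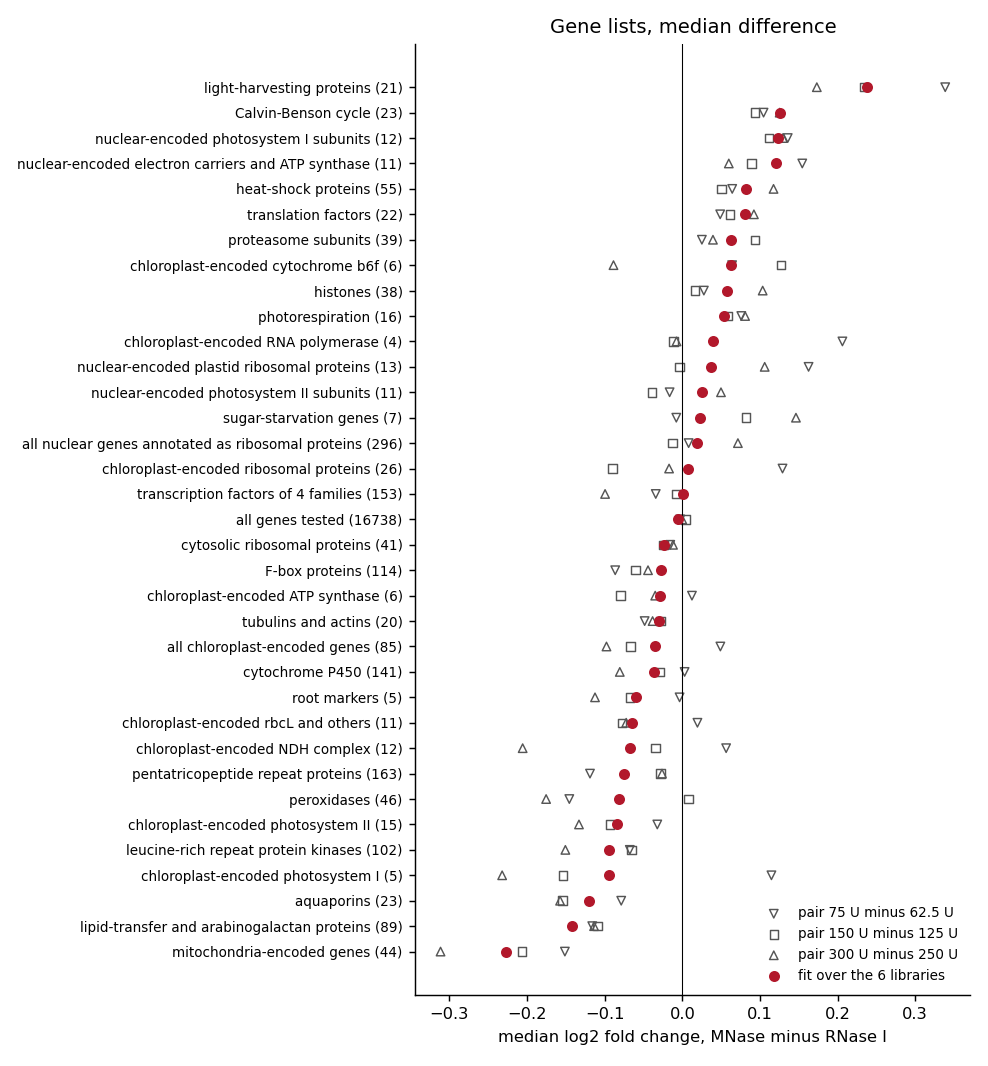
Median log2 fold change of MNase minus RNase I for each gene list, with the number of genes tested in brackets. Filled circles are the fit over the 6 libraries. Open symbols are the 3 pairs of equal dose rank (lowest, middle and highest), which are not matched in digestion. The light-harvesting list lies at 0.24, all genes tested at -0.01 and the mitochondrial entries at -0.23, and all 8 chloroplast-encoded groups have a lower median in the pair of highest doses than in the pair of lowest doses.

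No gene was called in 8 lists of nuclear genes. These were leucine-rich repeat protein kinases (102 tested, median -0.09), F-box proteins (114, -0.03), transcription factors of 4 families (153, 0.00), cytochrome P450 (141, -0.04), peroxidases (46, -0.08), tubulins and actins (20, -0.03), sugar-starvation genes (7, 0.02) and the root markers (5, -0.06). The single seed gene tested was not called either. Except for tubulins and actins, of which 11 of 20 lie in the highest decile of counts, few members of these lists reach it, and none of the F-box proteins. Small differences were thus not detectable in most genes of those other lists. The composition of the CDS had a weak relation to the difference. From the lowest to the highest quintile of GC content, the median log2 fold change was 0.013, 0.004, 0.000, -0.002 and -0.033 (Spearman's rho -0.052 across 16694 genes, as a description). Over quintiles of CDS length the medians lay between 0.003 and -0.015. Called genes were richer in GC than all genes in both directions, with a median of 46.4% for those higher and 47.4% for those lower with MNase, against 44.5% for all genes tested. Their median counts were also higher, 1549 and 851 against 88.7, so this GC comparison was not made between genes of like level.

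Between the nucleases, chloroplast genes moved up and down, often within 1 complex. Of 85 genes tested, 8 rose with MNase (9.41%) and 13 fell (15.3%), with a median of -0.03. Of the 77 in the highest decile 10.4% rose and 14.3% fell, against 9.44 and 4.00% of all genes there, so the rises were near the background. When chloroplast counts were scaled to their own total, a setting added after seeing the data, 9 rose and 7 fell, with a median of -0.003. The 8 rises all kept their call in that setting. Of the 13 falls only those of psaA, psaB, psbT, ndhC, rpl14 and rps3 did, and the other 7 stayed below 0 without a call. Chloroplast entries took 20.3, 19.2 and 18.7% of the CDS counts after 75, 150 and 300 U of MNase, against 21.5, 20.8 and 20.5% after 62.5, 125 and 250 U of RNase I. The difference of -1.55 percentage points (exact permutation test, p = 0.1) came with groups that did not overlap, although the MNase libraries were spread over a slightly wider range than that, and the share was lower at each higher dose of both. As a share of all deposited reads that were not rRNA, with those outside CDS included, chloroplast reads differed by -0.316 percentage points (exact permutation test, p = 0.8). They took 17.5% ± 0.274 after MNase and 17.8% ± 0.937 after RNase I. With rising dose this share was 17.57, 17.76 and 17.22% with MNase and 18.92, 17.26 and 17.33% with RNase I, so it was not lower at each higher dose. The 95% binomial interval of each share of CDS counts spans less than 0.1 percentage points, which covers counting error only. Of the deposited chloroplast reads, 96.7% ± 0.424 lay in CDS with MNase and 99.0% ± 0.0253 with RNase I (SD, n = 3 doses each).

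Photosystem I, which passes electrons to ferredoxin, had both the largest rise and 2 falls among its 5 chloroplast genes. psaJ, a small membrane subunit, had 914, 903 and 998 CPM after 75, 150 and 300 U of MNase, against 621, 501 and 473 CPM after 62.5, 125 and 250 U of RNase I (log2 fold change 0.82, standard error 0.07). Its groups were furthest apart at the highest doses. psaA and psaB, which encode the 2 large proteins of the reaction centre, went the other way, psaA with 10528, 9756 and 9145 CPM after MNase and 11117, 11179 and 10857 CPM after RNase I (-0.17, adjusted p = 0.0025) and psaB at -0.16. Photosystem II, which splits water, had 5 falls and 1 rise among 15 genes, with 1 of the 5 falls, that of psbT, called when scaled to the chloroplast total. The D1 reaction centre protein gene psbA had 30800, 29375 and 29026 CPM after MNase and 33140, 32799 and 32617 CPM after RNase I (-0.14, standard error 0.03, adjusted p = 0.00030). The core antenna genes psbB (-0.18) and psbC (-0.13) and the small subunits psbK (-0.28) and psbT (-0.49) fell, while psbE, a subunit of cytochrome b559, rose by 0.25 with 1431, 1311 and 1197 CPM after MNase and 1106, 1089 and 1112 CPM after RNase I.

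The other complexes split as well. In the cytochrome b6f complex, which links the photosystems, petD rose (0.29, standard error 0.06, adjusted p = 0.0012) and petA, cytochrome f, fell (-0.17). In the ATP synthase, atpH, the ring subunit, had 3776, 3868 and 4096 CPM after MNase and 3375, 3280 and 3245 CPM after RNase I (0.25), and atpI fell (-0.23). In the NDH complex, which returns electrons from the stroma to the membrane, ndhH rose (0.26) and ndhC fell (-0.38). Of 26 entries for ribosomal proteins, rps14 (0.30) and both copies of rpl23 in the inverted repeat (0.36 and 0.37), which share reads, rose, and rpl14 (-0.41), rps3 (-0.30) and an entry of rps12 (-0.47) fell. rpl14 had 278, 225 and 251 CPM after MNase and 348, 350 and 306 CPM after RNase I. None of the 4 genes for the plastid-encoded RNA polymerase was called. The median of the 5 chloroplast genes of photosystem I was 0.11 in the pair of lowest doses, -0.15 in the middle pair and -0.23 in the pair of highest doses, so the direction of this median depended on the doses compared. The summed level of the 5 genes was lower with MNase in every pair. It was 24505, 22430 and 20729 CPM after MNase and 25099, 24770 and 24057 CPM after RNase I.

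Dose was tested as a slope, the change in log2 level for each doubling of the dose, fitted for both nucleases in 1 model. With MNase, 65 genes changed with dose (0.388%), 30 rising (0.179%) and 35 falling (0.209%), and with RNase I 4 did (0.0239%), 1 rising (0.00597%) and 3 falling (0.0179%). At an unadjusted p under 0.05 there were 1126 genes with MNase (6.73%) and 370 with RNase I (2.21%). Scaling by library totals alone gave 36 rising and 28 falling genes with MNase. The slope differed between the nucleases in 27 genes (0.161%), more positive with MNase in 11 (0.0657%) and more negative in 16 (0.0956%), or in 11 and 9 with library totals alone. At an unadjusted p under 0.05 it differed in 762 genes (4.55%). The slope averaged over both nucleases, which 1 nuclease alone can carry, was called in 10 genes (0.0597%). It was positive in AT1G01100, AT2G01021 and DOT1 (0.0179%) and negative in 7 chloroplast genes (0.0418%), with 725 genes at an unadjusted p under 0.05 (4.33%). These fits leave 2 residual degrees of freedom, and single libraries decide many of the calls. Without the 62.5 U library of RNase I the 27 differences became 1, and without the 250 U library 4.

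Chloroplast genes made up 23 of the 35 falls with MNase dose and 2 of the 30 rises, and nuclear genes 12 of the falls and 28 of the rises. The MNase slope was negative in 73 of 85 chloroplast genes, and in 48 of them the level was lower at each higher dose, against 16.6% of all genes tested. With RNase I 3 chloroplast genes fell with dose and none rose, 66 of 85 slopes were negative, and 33 levels were lower at each higher dose, against 16.1% of all genes. The median slope was -0.11 with MNase and -0.04 with RNase I. A lower level is relative to the whole library, since counts were scaled across all 3 genomes. Scaled to the chloroplast total alone, 8 chloroplast genes fell with MNase dose and 12 rose, with 39 of 85 slopes negative. These 8, which are ndhE, petB, petD, psaC, psbK, psbM, psbT and rpl33, all belong to the 23. Of the others, 10 kept a negative slope without a call, the slopes of atpB, psaA, psbC and rbcL turned above 0 without a call, and that of psbA turned to a called rise (0.07). Without the 75 U library the 23 falls across all genes became 7, and without the 300 U library 15.

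**Figure D4:**
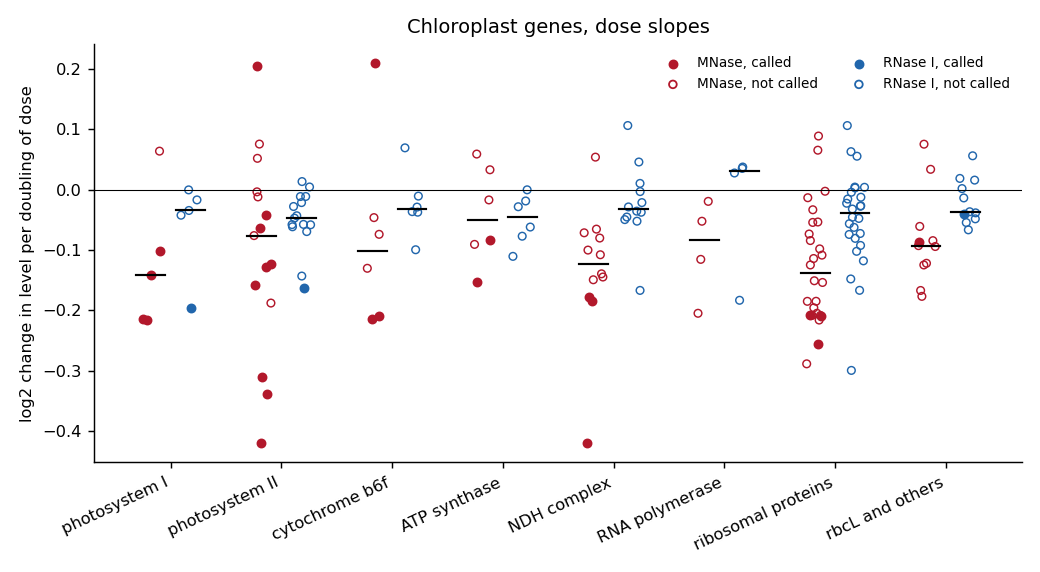
Slope of each chloroplast gene, in log2 level per doubling of the dose, for MNase (left, red) and RNase I (right, blue) in each complex; filled points were called by edgeR at an adjusted p under 0.05 and black lines are medians. Relative to the whole library most MNase points lie below 0, with psbT and ndhE lowest at -0.42 (39 of 85 are below 0 when scaled to the chloroplast total), and the RNase I points lie closer to 0.

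Among small subunits of the same complexes the dose trends diverged. Sequences are shown for 6 chloroplast reading frames of 87 to 183 nt whose trends differed between the nucleases, since such frames hold only few ribosomes. They were read from the reference sequence (RefSeq, TAIR10.1, whose chloroplast sequence is the same as in TAIR10) without the stop codon, with the start codon in capitals. psaJ lies on the chloroplast genome from 66929 to 67060 (plus strand), psbJ from 63541 to 63660 (minus), psbF from 63945 to 64061 (minus), petN from 28089 to 28175 (plus), psbT from 74082 to 74180 (plus) and psbK from 7017 to 7199 (plus).
psaJ: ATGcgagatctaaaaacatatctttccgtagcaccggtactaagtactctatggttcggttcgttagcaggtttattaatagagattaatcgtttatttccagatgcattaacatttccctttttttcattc
psbJ: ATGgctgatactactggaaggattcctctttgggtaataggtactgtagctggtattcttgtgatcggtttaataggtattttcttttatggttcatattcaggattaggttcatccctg
psbF: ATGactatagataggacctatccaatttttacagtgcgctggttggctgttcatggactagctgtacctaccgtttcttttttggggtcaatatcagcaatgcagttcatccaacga
petN: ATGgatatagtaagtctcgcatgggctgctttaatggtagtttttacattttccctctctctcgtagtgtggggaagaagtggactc
psbT: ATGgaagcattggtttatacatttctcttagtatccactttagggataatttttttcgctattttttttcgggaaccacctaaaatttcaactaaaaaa
psbK: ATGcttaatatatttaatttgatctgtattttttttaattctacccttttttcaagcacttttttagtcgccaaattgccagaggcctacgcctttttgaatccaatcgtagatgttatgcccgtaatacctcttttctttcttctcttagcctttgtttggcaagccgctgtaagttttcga

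Of these 6, psbT and psbK fell with MNase dose. psbT, a small subunit of photosystem II, had 398, 280 and 223 CPM after 75, 150 and 300 U of MNase (slope -0.42, adjusted p = 1.9e-11), against 470, 402 and 386 CPM after 62.5, 125 and 250 U of RNase I (slope -0.14, not called). psbK, another small subunit, had 898, 770 and 584 CPM after MNase (slope -0.31, adjusted p = 2.6e-11) and 899, 914 and 916 CPM after RNase I (slope 0.01). At the lowest dose the 2 nucleases thus gave psbK the same level. In petN and psbF the level rose with MNase dose. petN, of the cytochrome b6f complex, had 471, 599 and 631 CPM after MNase (slope 0.21) and 521, 490 and 495 CPM after RNase I (slope -0.04). psbF, the other subunit of cytochrome b559, had 509, 492 and 674 CPM after MNase (slope 0.20) and 510, 467 and 471 CPM after RNase I (slope -0.06), so its rise rests on the 300 U library and became -0.04 without it.

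psaJ and psbJ, by contrast, fell with RNase I dose. The slope of psaJ was -0.20 (adjusted p = 0.0025) with RNase I and 0.06 with MNase. psbJ, of photosystem II, had 862, 908 and 957 CPM after MNase (slope 0.08) and 1048, 922 and 836 CPM after RNase I (slope -0.16, adjusted p = 0.0056), so that the order of the nucleases turned between the lowest and the highest dose. rbcL, the large subunit of Rubisco and the gene with the highest counts of all, fell with both, to 65456 CPM at 300 U of MNase after 73875 and 66987 CPM at 75 and 150 U (slope -0.09), and to 71528 CPM at 250 U of RNase I after 75599 and 72968 CPM at 62.5 and 125 U (slope -0.04). Of the 85 chloroplast genes it was the only one whose slope passed the test with each nuclease. Scaled to the chloroplast total, its slopes were 0.03 with MNase and -0.03 with RNase I, and neither was called.

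Further chloroplast genes fell with MNase dose relative to the whole library. psaB (slope -0.14), psaA (-0.10), atpA (-0.15), atpB (-0.08), psbC (-0.06) and psbA (-0.04), which encode large subunits of the photosystems and the ATP synthase, all passed the test, as did psaC (-0.22), petB and petD (-0.21 each), psbM (-0.34), rpl33 (-0.26) and ndhE (-0.42). None of the first 6 was called as a fall when scaled to the chloroplast total, where psaB (-0.03) and atpA (-0.04) stayed below 0, psaA (0.01), atpB (0.03) and psbC (0.05) turned above it and psbA was called as a rise, whereas the others named kept their call. petD, subunit IV of cytochrome b6f, had 2653, 2312 and 1969 CPM after MNase and 1943, 1872 and 1845 CPM after RNase I. Its difference between the nucleases narrowed with each dose. psbD, the D2 protein of photosystem II, had 7865, 8140 and 8448 CPM after MNase (slope 0.05) and 8330, 7977 and 7683 CPM after RNase I (slope -0.06). Neither slope was called, but the difference of 0.11 was (adjusted p = 0.0018).

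Among nuclear genes, ribosomal protein genes were among those that rose with MNase dose. Of the 296 tested genes annotated as ribosomal proteins, a list chosen after values were seen, 8 rose and none fell (background 0.179% rising over all genes). In the highest decile of counts lie 162 of the 296, and no share rising with dose was taken for that decile. None changed with RNase I dose, with which only 4 of all genes tested did. Of 5 genes for ribosomal protein L41, a very small and basic protein of the large subunit, 3 were among the 8. Their reading frames of 75 nt are shown because they differ at only 9 positions, so a short fragment can fit several of them. They were read from RefSeq (TAIR10.1, whose nuclear sequence is that of TAIR10), joined over 2 exons and without the stop codon, with the bases that differ among the copies in capitals. AT2G40205 spans 16792358 to 16792531 on chromosome 2 (minus strand), AT3G08520 2586032 to 2586203 (plus), AT3G56020 20790829 to 20791043 (minus) and AT3G11120 3481128 to 3481301 (plus) on chromosome 3, and AT1G56045 20962686 to 20963265 (plus) on chromosome 1.
AT2G40205: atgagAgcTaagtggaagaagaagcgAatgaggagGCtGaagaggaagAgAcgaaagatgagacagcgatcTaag
AT3G08520: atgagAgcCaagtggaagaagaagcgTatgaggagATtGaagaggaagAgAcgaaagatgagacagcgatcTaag
AT3G56020: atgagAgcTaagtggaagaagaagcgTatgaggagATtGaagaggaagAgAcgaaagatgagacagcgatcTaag
AT3G11120: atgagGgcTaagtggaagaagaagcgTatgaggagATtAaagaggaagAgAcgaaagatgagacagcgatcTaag
AT1G56045: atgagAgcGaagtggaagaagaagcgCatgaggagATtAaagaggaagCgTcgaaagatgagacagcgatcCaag

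AT2G40205 had 45.6, 69.1 and 102 CPM after 75, 150 and 300 U of MNase (slope 0.58, standard error 0.09, adjusted p = 1.8e-06), against 83.2, 89.8 and 80.4 CPM after 62.5, 125 and 250 U of RNase I (slope -0.03). AT3G08520 (slope 0.46) and AT3G56020 (0.37) rose as well, and the slopes of AT3G11120 (0.15) and AT1G56045 (0.18) were not called. Summed over the 5 copies, over which the split of reads among them does not matter, L41 had 462, 573 and 718 CPM after MNase and 650, 653 and 616 CPM after RNase I. The lowest MNase dose was below every RNase I library and the highest above every one. The acidic stalk proteins AT1G01100 and AT5G47700 rose too. AT1G01100 had 231, 286 and 363 CPM after MNase (slope 0.33, adjusted p = 4.7e-07) and 319, 324 and 373 CPM after RNase I (slope 0.12), and AT5G47700 had a slope of 0.27 with MNase.

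Further nuclear genes rose with MNase dose. DOT1, a glycine-rich protein, had 148, 175 and 256 CPM after 75, 150 and 300 U of MNase (slope 0.40, adjusted p = 1.4e-07), against 214, 221 and 247 CPM after 62.5, 125 and 250 U of RNase I (slope 0.10). As in L41, its level at the highest MNase dose came up to that of RNase I. The glycine-rich protein genes GRP23 (AT2G32690, 0.27), AT4G29020 (0.29) and GRP-3 (0.16) rose as well. PSBW, a small subunit of photosystem II, had 1041, 1201 and 1363 CPM after MNase (slope 0.19) and 1146, 1096 and 1136 CPM after RNase I (slope -0.01). PSAO, of photosystem I, had a slope of 0.13, FD1 of 0.16 and THI1, a thiamine precursor enzyme, of 0.10 with MNase. CFM3A, a splicing factor of chloroplasts, had 24.3, 36.1 and 47.7 CPM after MNase (slope 0.48) and 54.3, 51.0 and 43.0 CPM after RNase I (slope -0.17, not called). Of called genes with a mean of at least 50 counts, the steepest slopes were those of AT1G30590 (1.04) and AT3G60300 (0.71). RHL2 (1.21), AT5G18920 (2.61) and CCR1 (4.31), which have fewer counts, were called too, CCR1 on 0, 1 and 20 counts after 75, 150 and 300 U of MNase.

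Nuclear genes that fell with MNase dose included 3 of the light-harvesting list, CAB1, CAB2 and LHCB2.1, which were also higher with MNase than with RNase I. CAB1 had 11298, 10621 and 10143 CPM after 75, 150 and 300 U of MNase (slope -0.08, adjusted p = 0.00031), against 8024, 8366 and 8260 CPM after 62.5, 125 and 250 U of RNase I (slope 0.02). Their excess with MNase was therefore largest at the lowest dose, as for the list as a whole. GER1 (AT1G72610), a germin-like cell wall protein, had 1393, 1217 and 1077 CPM after MNase (slope -0.19, adjusted p = 2.1e-06) and 1320, 1354 and 1322 CPM after RNase I (slope 0.00). FBR12, the translation factor eIF5A (-0.21), TIP2, an aquaporin of the vacuole (-0.14), PSBQ-2, of the oxygen-evolving complex (-0.14), and CLPR1, a subunit of the plastid Clp protease (-0.23), fell too. Steeper falls were those of AT5G22280 (-1.01), ZFN1 (-0.56) and ECS1 (-0.33).

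**Figure D5:**
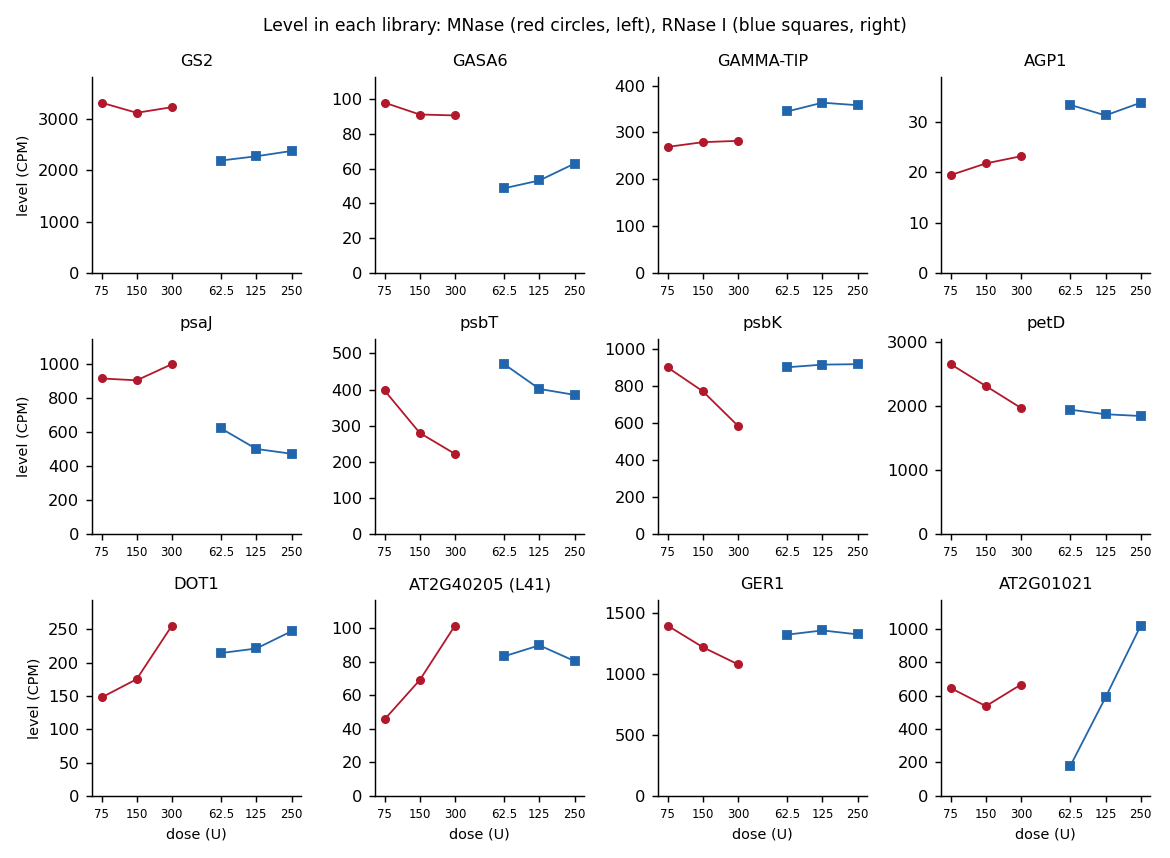
Level in CPM (vertical axes start at 0) of 12 genes in each library, with MNase doses at the left (red circles) and RNase I doses at the right (blue squares) of every panel. GS2 and GASA6 stay higher with MNase and GAMMA-TIP and AGP1 lower, psbT, psbK, petD and GER1 go down with MNase dose, DOT1 and the L41 gene AT2G40205 go up with it, and AT2G01021 goes up with RNase I dose only.

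Among called genes, the steepest change with RNase I dose was in AT2G01021, the nuclear gene that rose with it. This is an uncharacterized gene model of 99 nt on chromosome 2 (6571 to 6669, plus strand, TAIR10). It had 646, 538 and 667 CPM after 75, 150 and 300 U of MNase (slope 0.02), against 180, 590 and 1019 CPM after 62.5, 125 and 250 U of RNase I (slope 1.23, adjusted p = 1.4e-36). Between the nucleases the gene was not called (0.04 on the log2 scale, adjusted p = 0.97), and the RNase I values lay on both sides of those with MNase. The difference in slope was -1.20 (adjusted p = 2.2e-26). Its sequence is shown since it contains the complement of the oligo Nu_25S_4, 1 of 43 that the study designed against rRNA, and the capitals mark that stretch. The oligo follows on its own line, and the gene was read from RefSeq (TAIR10.1) without the stop codon.
AT2G01021: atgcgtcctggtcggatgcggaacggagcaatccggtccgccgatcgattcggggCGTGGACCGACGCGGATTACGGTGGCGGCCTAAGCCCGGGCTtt
Nu_25S_4: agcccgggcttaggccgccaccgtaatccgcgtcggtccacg

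Of the 99 bases of this gene model, 42 thus match an oligo meant for 25S rRNA. Deposited rRNA reads made up 80.5, 83.6 and 77.7% of the reads after 62.5, 125 and 250 U of RNase I. They were filtered out before counting and are summed over all rRNA, so they do not show what remained over this gene. The part that rRNA fragments take in the counts of this gene was not tested.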

How the data were processed

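RPFs were counted by the authors over the CDS of each gene. Per the methods, cutadapt removed adapters, STAR filtered out reads of rRNA, tRNA and snoRNA and placed the remainder on TAIR10, and featureCounts counted sense reads (Ensembl Plants annotation), with 1 alignment kept for reads that fit several places. Tool versions were not given in the sources used here. Deposited values are raw counts, and the deposited read totals per library (rRNA, nuclear, chloroplast and mitochondrial) are counts as well.

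From these counts, genes reaching 10 counts in 3 or more of the 6 libraries were tested with edgeR 4.0.16 (R 4.3.3; TMM, quasi-likelihood test, Benjamini-Hochberg over all genes), with nuclease as the term, or nuclease, dose step and their interaction. DESeq2 1.42.0 and limma 3.58.1 (voom) were alternatives. Levels are TMM-normalized CPM. Tables and plots were made with Python 3.11.15, pandas 2.3.3, numpy 2.4.6, scipy 1.17.1 and matplotlib 3.10.9. The fits were also run on simulated counts, drawn with the dispersion that edgeR estimated here and with known changes added. Such counts hold no effect of a single library shared by many genes. They therefore do not show how reliable the calls are with 1 library per dose. At 4431776 to 11583740 counts per library, depth limits weakly translated genes.

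Chloroplast entries were named by coordinates (86 of 88), and nuclear names come from RefSeq (TAIR10.1). Genes named are the 12 with the largest fold in each direction (adjusted p under 0.05, at least 50 mean counts, groups not overlapping), up to 4 members of each list, every called chloroplast gene, up to 4 mitochondrial entries, those with the steepest dose slopes and the strongest differences in slope. Further genes called for a dose slope, members of a list beyond 4 and the entries on chromosome 2 were named after values were seen. The lists, the rule and the tests were chosen with earlier results of these data known.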

Additional observations from a re-analysis of the deposited data

Results flagged for a closer look

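Of all results, the 27 genes whose dose slope differed between the nucleases in the interaction test stand out. In them a doubling of dose went with different changes in the 2 groups, whose doses are not matched in digestion. Values are the slope with MNase minus the slope with RNase I, in log2 level per doubling of dose. Among chloroplast genes the difference was negative for rpl33 (-0.36), psbK (-0.32), psbT (-0.28), petD (-0.18), psaC (-0.17), psaB (-0.11), psaA (-0.08) and rbcL (-0.05), and positive for psaJ (0.26), psbF (0.26), petN (0.25), psbJ (0.24) and psbD (0.11). Scaled to the chloroplast total, these 5 positive differences were called again among 12, whereas of the 8 negative ones rpl33 and psbK were, and those of rbcL (0.06) and psaA (0.02) turned above 0.

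Among nuclear genes it was positive for the L41 copies AT2G40205 (0.60), AT3G08520 (0.48) and AT3G56020 (0.42), for PSBW (0.20), PSAO (0.17) and THI1 (0.15). It was negative for AT5G22280 (-1.53), AT2G01021 (-1.20), FSD1 (-0.21), an iron superoxide dismutase of chloroplasts, GER1 (-0.19), LHCB2.1 (-0.14), LHCB3 (-0.13), CAB2 (-0.11) and CAB1 (-0.10). LHCB3 had 2859, 2803 and 2650 CPM after 75, 150 and 300 U of MNase and 2261, 2382 and 2527 CPM after 62.5, 125 and 250 U of RNase I, so the nucleases converged at the highest doses. With 1 library per dose, a dose and a library cannot be told apart.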

How the results depend on the processing

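The count of 324 genes was 265 to 438 under the other tools, scalings and filters. It was 343 with dose step as a replicate block, which pairs libraries of equal dose rank only by design and changed no count by over 1.5 times. When 1 library was left out it was 131 to 403 (131 without the 62.5 U and 155 without the 125 U library of RNase I). All 324 kept their sign under every scaling, tool and block that tested them. Genes called for the slope averaged over both nucleases were 10, 16 with no filter on low counts, 2 with DESeq2 and 1 to 28 when 1 library was left out. The 27 slope differences were 1 to 91, the 65 MNase slopes 51 to 218 and the 4 RNase I slopes 1 to 6 when 1 library was left out, and the RNase I slopes were 9 with no filter and 2 with DESeq2. Of the 65 MNase slopes 21 were among the 218 called without the 75 U and 16 among the 178 called without the 300 U library of MNase. Of the 27 slope differences 8 were among the 82 called without the 75 U library and 9 among the 91 called without the 300 U library. The 23 chloroplast genes falling with MNase dose were 8 when scaled to the chloroplast total and 7 to 31 when 1 library was left out. Light-harvesting genes higher with MNase were 15, and 11 to 14 of the list when 1 library was left out. Genes of any list called were 91, and 43 to 99 when 1 library was left out. Of slopes of single genes, that of psbF with MNase was -0.0442 without 300 U and 0.451 without 75 U, and the slope difference of rbcL was 0.00499 without 75 U and -0.0986 without 300 U of MNase. Of 97 genes named for a nuclease difference, 46 kept their call without the 62.5 U and 50 without the 125 U library of RNase I. The GC trend, -0.046 between the outer quintiles, was -0.028 in the pair of highest doses. The length trend, -0.012, was -0.00820 in the pair of lowest doses, -0.00643 in the pair of highest doses and -0.00468 for genes with at least 100 counts. The cause of these changes was not tested. The organelle shares kept their sign in all settings run. Depth limits genes outside the highest deciles of counts.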
